A study of Mus musculus with 6 samples.

Results

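The regions described here are 993 promoter tiles, of 18545 measured, at which Ezh2 signal was higher in PL2F8 mouse embryonic stem (ES) cells than in AB2.2 ES cells. A tile is 1 stretch of the array design, with a median length of 4000 bp and a median of 38 probes over all tiles, and its value is the mean log2 ratio of ChIP over input of its probes after each array was centred on its probe median. A tile was kept where it held at least 5 probes, the lower PL2F8 array exceeded the higher AB2.2 array by 0.5 or more (the gap), and at least 1 of the 6 arrays lay below 1.5. The tiles were thus chosen by the PL2F8 and AB2.2 values, and the contrast between these lines is described below without a test. The gap alone was met by 1049 tiles, 5.66% of all, and 56 of them were left out because all 6 arrays lay at 1.5 or above. All 993 tiles had a PL2F8 or AB2.2 array below 1.5, so none was admitted through an R1 array alone.

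Ezh2 occupancy was measured on 6 two-colour promoter arrays, with the input DNA labelled with Cy3 and the DNA bound by an anti-Ezh2 antibody labelled with Cy5 on each. PL2F8, a line deficient in Brca1, and AB2.2, which is wild-type for it, are both of the strain 129/SvEvBrd-Hprtb-m2 and had 2 arrays each. R1 ES cells had 1 array after siRNA against Brca1 and 1 array after control siRNA, both harvested 48 h after transfection. All cells were grown with leukaemia inhibitory factor on gelatin-coated dishes, and all DNA was amplified by ligation-mediated PCR. PL2F8 is a single line, the labels do not say whether the duplicates came from separate cultures, and the arrays hold no measure of Brca1 itself.

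Ezh2 is the catalytic subunit of Polycomb repressive complex 2 (PRC2), which methylates lysine 27 of histone H3 and helps keep genes silent. In ES cells PRC2 is best known for occupying CpG-rich promoters of developmental regulators, which stay silent until differentiation. Brca1 acts in DNA double-strand break repair and as part of a ubiquitin ligase, and the question here was where in the genome Ezh2 goes when Brca1 is lost.

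Promoters of 6 tiles with a large gap between the lines are shown first, because CpG content is the sequence feature most often linked to PRC2. They are those, among the 12 named tiles of largest gap, whose gene has exactly 1 entry in the RefSeq promoter table. Shank2, Zfp521, Xirp1, Lats2, Rgs19 and Paqr7, the other 6, are not shown, so the range of CpG content below is that of these 6 promoters alone. The sequences are from RefSeq (GRCm38.p6), run from 250 bases before to 50 bases after the start of the gene, 5′ to 3′ on the strand of the gene, with CG dinucleotides in capitals. They cover only the start of each gene and not the whole tile.
Hspb3 (chr13:113663627-113663926, minus strand): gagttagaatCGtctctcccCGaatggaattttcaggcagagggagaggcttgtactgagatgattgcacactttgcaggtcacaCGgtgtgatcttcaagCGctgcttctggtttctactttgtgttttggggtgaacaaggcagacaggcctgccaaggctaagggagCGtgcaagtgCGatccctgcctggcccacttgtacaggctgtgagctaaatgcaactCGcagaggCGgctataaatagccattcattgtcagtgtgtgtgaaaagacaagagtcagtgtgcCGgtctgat
Lamb2 (chr9:108479612-108479911, plus strand): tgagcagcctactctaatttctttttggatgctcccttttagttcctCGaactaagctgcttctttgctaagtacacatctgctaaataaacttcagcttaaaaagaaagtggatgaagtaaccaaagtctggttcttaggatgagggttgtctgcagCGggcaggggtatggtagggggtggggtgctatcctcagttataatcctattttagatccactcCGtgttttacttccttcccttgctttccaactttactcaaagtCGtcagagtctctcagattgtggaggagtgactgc
Tpp1 (chr7:105752186-105752485, minus strand): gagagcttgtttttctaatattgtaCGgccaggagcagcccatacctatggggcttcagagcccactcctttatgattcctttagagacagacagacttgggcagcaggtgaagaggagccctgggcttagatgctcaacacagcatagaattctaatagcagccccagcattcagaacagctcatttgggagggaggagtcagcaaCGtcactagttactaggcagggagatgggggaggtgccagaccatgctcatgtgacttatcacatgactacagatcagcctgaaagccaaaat
Osgin1 (chr8:119436897-119437196, plus strand): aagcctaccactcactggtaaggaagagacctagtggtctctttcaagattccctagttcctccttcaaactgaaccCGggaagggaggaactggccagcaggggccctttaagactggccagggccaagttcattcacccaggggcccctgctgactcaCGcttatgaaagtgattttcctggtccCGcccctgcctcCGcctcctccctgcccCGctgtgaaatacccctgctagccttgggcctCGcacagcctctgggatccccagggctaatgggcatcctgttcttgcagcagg
Rsph6a (chr7:19054437-19054736, plus strand): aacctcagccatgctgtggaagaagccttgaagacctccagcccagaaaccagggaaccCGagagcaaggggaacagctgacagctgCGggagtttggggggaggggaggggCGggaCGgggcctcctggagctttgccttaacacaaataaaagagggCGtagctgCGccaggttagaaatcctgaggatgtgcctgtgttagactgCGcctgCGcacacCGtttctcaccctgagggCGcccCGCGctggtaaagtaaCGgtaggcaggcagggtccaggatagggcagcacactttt
Slc9a3 (chr13:74121163-74121462, plus strand): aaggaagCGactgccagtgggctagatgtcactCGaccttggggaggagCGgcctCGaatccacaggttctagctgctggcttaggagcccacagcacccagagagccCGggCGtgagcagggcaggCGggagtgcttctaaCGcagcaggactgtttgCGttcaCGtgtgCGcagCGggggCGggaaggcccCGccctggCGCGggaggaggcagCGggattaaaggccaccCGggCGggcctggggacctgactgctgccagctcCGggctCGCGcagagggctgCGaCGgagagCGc

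The 6 promoters held 9 CG dinucleotides at Hspb3, 4 at Lamb2, 2 at Tpp1, 6 at Osgin1, 13 at Rsph6a and 25 at Slc9a3, against a median of 7 over 27025 RefSeq promoters of the same length. Their GC content was 51% at Hspb3, 44% at Lamb2, 49.7% at Tpp1, 58.7% at Osgin1, 59.7% at Rsph6a and 68.7% at Slc9a3, beside a median of 52.8% over all promoters. The motif GGGCGG, searched on both strands and overlapping some of the CG dinucleotides, occurred 3 times at Slc9a3 and 1 time each at Osgin1 and Rsph6a, and 38.2% of all promoters held it. A promoter sequence was found for 77.1% of the 900 genes that start in these tiles, under the share of 80% needed to describe base composition over the whole set, so none is given for the set. The 6 genes come from the named genes, a pool richer in CpG than all promoters. Named genes with a sequence (77.3%, also under 80%) had medians of 18 CG dinucleotides and 60.8% GC, and 64.5% held GGGCGG. No high or low CpG content is therefore read from the comparison with all promoters.

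Over the 993 tiles the median log2 ratio was 0.63 and 0.59 on the PL2F8 arrays, against -0.05 and -0.11 on the AB2.2 arrays. The R1 arrays had medians of 0.49 after Brca1 siRNA and 0.41 after control siRNA. Over all 18545 tiles the medians lay between -0.01 and 0.05 on the 6 arrays. The median PL2F8 minus AB2.2 difference was 0.67, or 1.59-fold, with a range of 0.51 to 1.90, where the median over all tiles was 0.11. Most of the gain was small: 526 of the 993 tiles had a gap under 0.6 and 22 had a gap of 1 or more, with 1.79 as the highest.

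The gain tiles covered a wide range of levels. The PL2F8 mean lay under 0.5 at 423 tiles (all tiles 77.9%), at 1 or above at 303 (all tiles 11.2%) and at 2 or above at 28 (all tiles 2.35%). The AB2.2 mean lay below 0, the array median, at 551 of the 993 tiles (all tiles 49%), between 0 and 1 at 380 (all tiles 43.8%) and at 1 or above at 62 (all tiles 7.13%). The rule used these values, and nothing is read from the counts. At 64 tiles (all tiles 42.3%) both PL2F8 arrays were themselves below 0, with AB2.2 lower still.

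**Figure D1:**
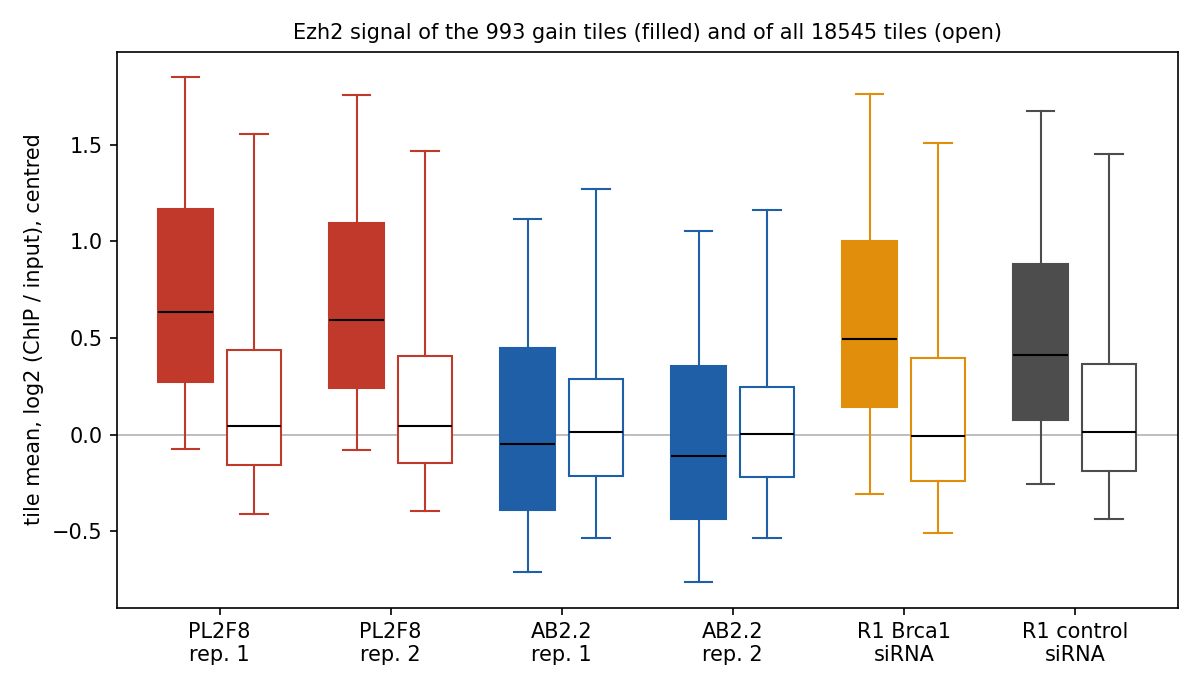
Tile means (log2 ChIP over input, centred on the median of each array) of the 993 gain tiles (filled boxes) and of all 18545 tiles (open boxes) on each array; boxes span the 25th to 75th percentile with the median as a line, whiskers the 5th to 95th percentile. The gain tiles sit above all tiles on the PL2F8 and both R1 arrays (medians 0.63, 0.59, 0.49 and 0.41) and slightly below them on the AB2.2 arrays (-0.05 and -0.11).

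The duplicate arrays differed little at the tiles. The median absolute difference between duplicates was 0.05 in PL2F8 and 0.07 in AB2.2, and over all tiles the duplicates correlated across tiles with r of 0.997 in PL2F8 and 0.988 in AB2.2. The agreement held probe by probe. Among the 979 gain tiles with at least 20 probes, the median correlation across the probes of a tile was 0.98 between the PL2F8 duplicates and 0.93 between the AB2.2 duplicates, but 0.47 between PL2F8 replicate 1 and AB2.2 replicate 1 and 0.71 between the 2 R1 arrays. At the 154 of these tiles with no listed peak on any array it was still 0.97 between the PL2F8 duplicates and 0.93 between the AB2.2 duplicates, and 0.22 between PL2F8 replicate 1 and AB2.2 replicate 1. Duplicates thus shared the fine pattern of a tile also where no peak was listed, and whether they share a culture, an immunoprecipitate or an amplification was not tested.

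The tile with the largest gap was that of Hspb3, which encodes a muscle chaperone of the small heat shock family (chr13:114453067-114457067 in the coordinates of the files, whose build no label or header names). It had 2.35 and 2.18 on the PL2F8 arrays, against 0.33 and 0.39 on the AB2.2 arrays. R1 had 1.47 after Brca1 siRNA and 1.72 after control siRNA, between the 2 lines. PL2F8 minus AB2.2 was 1.90 at Hspb3, and 14 of its 15 probes differed by 0.5 or more. Positions are given in bp from the start, negative upstream. The PL2F8 signal had a dip between an upstream and a downstream stretch, with 2.66 and 2.21 at -522 bp, 0.85 and 0.63 at -222 bp and 4.11 and 3.94 at 398 bp on its arrays. At -522 bp AB2.2 had -0.57 and 0.06, so the upstream stretch was high in PL2F8 and not in AB2.2. R1 also had the dip, with 1.80 after Brca1 siRNA and 2.73 after control siRNA at -317 bp, and 0.70 and 1.19 in the same order at -222 bp. The highest PL2F8 mean of the duplicates was 4.03 at 398 bp, against 1.84 at 298 bp for AB2.2, while the highest R1 probe reached 2.51 after Brca1 siRNA and 2.89 after control siRNA.

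Lamb2, which encodes a laminin chain of basement membranes, had 0.68 and 0.66 on the PL2F8 arrays, against -0.72 and -0.73 on the AB2.2 arrays, with 0.23 after Brca1 siRNA and 0.12 after control siRNA in R1. PL2F8 minus AB2.2 was 0.5 or more at 24 of its 36 probes, and the signal in PL2F8 held spikes: 3.63 and 3.68 at -1277 bp, where AB2.2 had -0.95 and -1.02, and 3.53 and 3.51 at -492 bp, where AB2.2 had -1.93 and -1.64. At -1277 bp R1 had -1.02 after Brca1 siRNA and 0.68 after control siRNA. After Brca1 siRNA R1 instead reached 2.79 at -687 bp, where the control array had 0.74 and PL2F8 had -0.52 and -0.53.

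Osgin1, an oxidative stress-induced growth inhibitor gene, had 0.76 and 0.71 on the PL2F8 arrays, against -0.49 and -0.72 on the AB2.2 arrays, with 0.60 after Brca1 siRNA and 0.53 after control siRNA in R1. The difference was 0.5 or more at 24 of its 39 probes. PL2F8 had a spike of 4.09 and 4.22 at -1533 bp and another of 4.35 and 4.28 at 128 bp. At -1533 bp R1 had 1.19 after Brca1 siRNA and 1.85 after control siRNA, and at 128 bp it had 1.84 and 1.70 in the same order. Tpp1, which encodes a lysosomal peptidase, had 1.13 and 1.01 on the PL2F8 arrays, against -0.32 and -0.46 on the AB2.2 arrays, with 0.40 after Brca1 siRNA and 0.62 after control siRNA in R1. The difference was 0.5 or more at 29 of its 40 probes and included a broad upstream stretch. From -3051 to -1866 bp the probes lay between 0.70 and 2.23 on PL2F8 replicate 1, against -1.36 and 0.04 on AB2.2 replicate 1. Its highest PL2F8 probe, 4.00 and 3.67 at 629 bp, had 0.55 after Brca1 siRNA and 1.51 after control siRNA in R1.

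**Figure D2:**
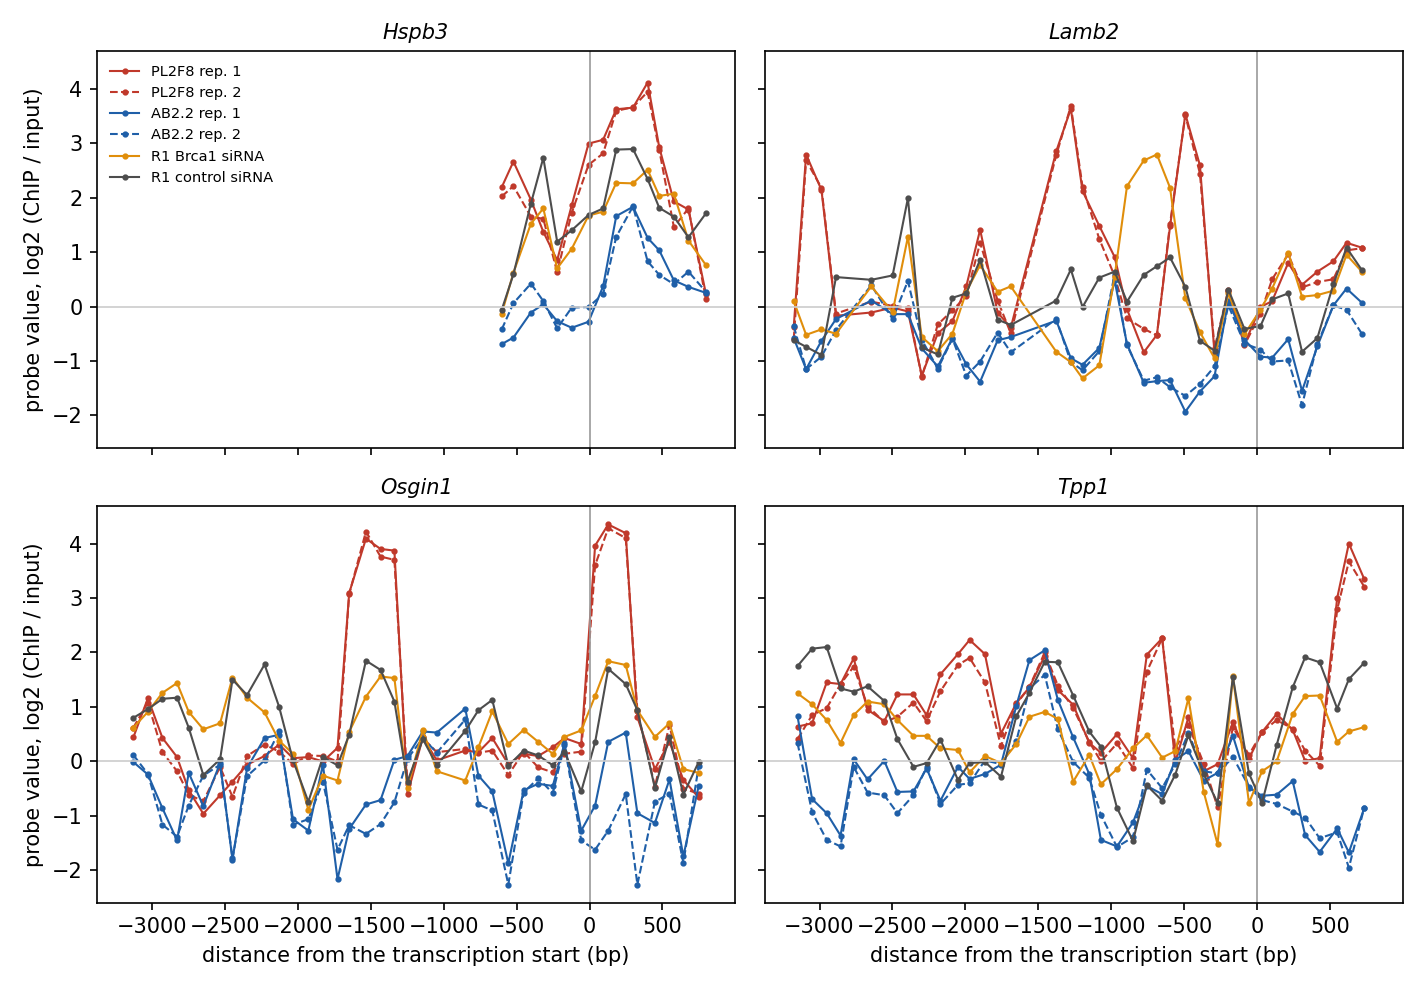
Probe values (log2 ChIP over input, centred) against distance from the named transcription start at Hspb3, Lamb2, Osgin1 and Tpp1 on the 6 arrays; lines join neighbouring probes and the vertical line marks the start. Hspb3 is high in PL2F8 on both sides of a dip at -222 bp. The highest PL2F8 probes reach 3.68 at Lamb2, 4.35 at Osgin1 and 4.00 at Tpp1, which also has a broad stretch of gain from -3051 to -1866 bp.

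Among the next named tiles by gap, Shank2, a scaffold gene of excitatory synapses, had 1.84 on both PL2F8 arrays, against 0.65 and 0.57 on the AB2.2 arrays, and R1 had 1.48 after Brca1 siRNA and 1.82 after control siRNA. Its R1 control value thus lay at the PL2F8 level. Lats2, a kinase gene of the Hippo growth-control pathway, had 1.13 on both PL2F8 arrays, against -0.08 and 0.04 on the AB2.2 arrays, with 1.44 after Brca1 siRNA and 1.06 after control siRNA in R1. Another Lats2 tile, over another start of the gene, was also a member, with 1.61 and 1.44 on the PL2F8 arrays, against 0.71 and 0.82 on the AB2.2 arrays. Rsph6a, a radial spoke gene of sperm flagella, was a gain in which PL2F8 stayed near the array median, with 0.10 on both PL2F8 arrays, against -1.03 and -1.16 on the AB2.2 arrays, and no listed peak on any of the 4. Slc9a3, the sodium-hydrogen exchanger gene of gut and kidney epithelium with the CG-rich promoter above, had 1.60 and 1.45 on the PL2F8 arrays, against 0.38 and 0.34 on the AB2.2 arrays, and a listed peak on all 6 arrays. Zfp521, a zinc finger regulator gene, had 1.96 and 1.82 on the PL2F8 arrays, against 0.72 and 0.37 on the AB2.2 arrays, and Rgs19, which encodes a regulator of G protein signalling, had 1.20 and 1.13, against 0.04 and -0.10. Xirp1 and Paqr7 completed the 12 named tiles of largest gap, with PL2F8 minus AB2.2 of 1.12 and 1.22.

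The edge of the rule fell within a crowded range. The 3 named tiles just inside it, Esrra/1700019N12Rik, Sf3a3 and Anxa8, had a gap of 0.50, as had the 3 just outside it, Gba2/Rgp1, Dab1 and LOC100270707/Usp27x, and 985 tiles had a gap between 0.4 and 0.5. At Sf3a3, a splicing factor gene, the PL2F8 arrays had 0.48 and 0.49, against -0.06 and -0.02 on the AB2.2 arrays. At Dab1, an adaptor gene of neuronal migration, the PL2F8 arrays had 1.29 and 1.19, against 0.69 and 0.68 on the AB2.2 arrays.

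The place of the gain was read at the 748 tiles that carry 1 named transcription start. Tiles of 4000 bp reach from 3200 bp before the start onward, so the array sees mostly the upstream side. Around the start, from -250 to 250 bp, the gain tiles averaged 1.70 in PL2F8, against 0.59 in AB2.2, a difference of 1.10. From 250 to 750 bp they averaged 1.71 in PL2F8, against 0.65 in AB2.2, a difference of 1.06. The difference was smaller with distance upstream, 0.77 from -750 to -250 bp, 0.64 from -1250 to -750 bp and 0.42 from -3250 to -2750 bp. Over all 8074 tiles with 1 named start the difference was 0.56 around the start, 0.49 downstream of it and 0.06 at the far upstream end. The gain tiles therefore exceeded all tiles over the whole length, and their gain was largest where the gain of all tiles was largest too.

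**Figure D3:**
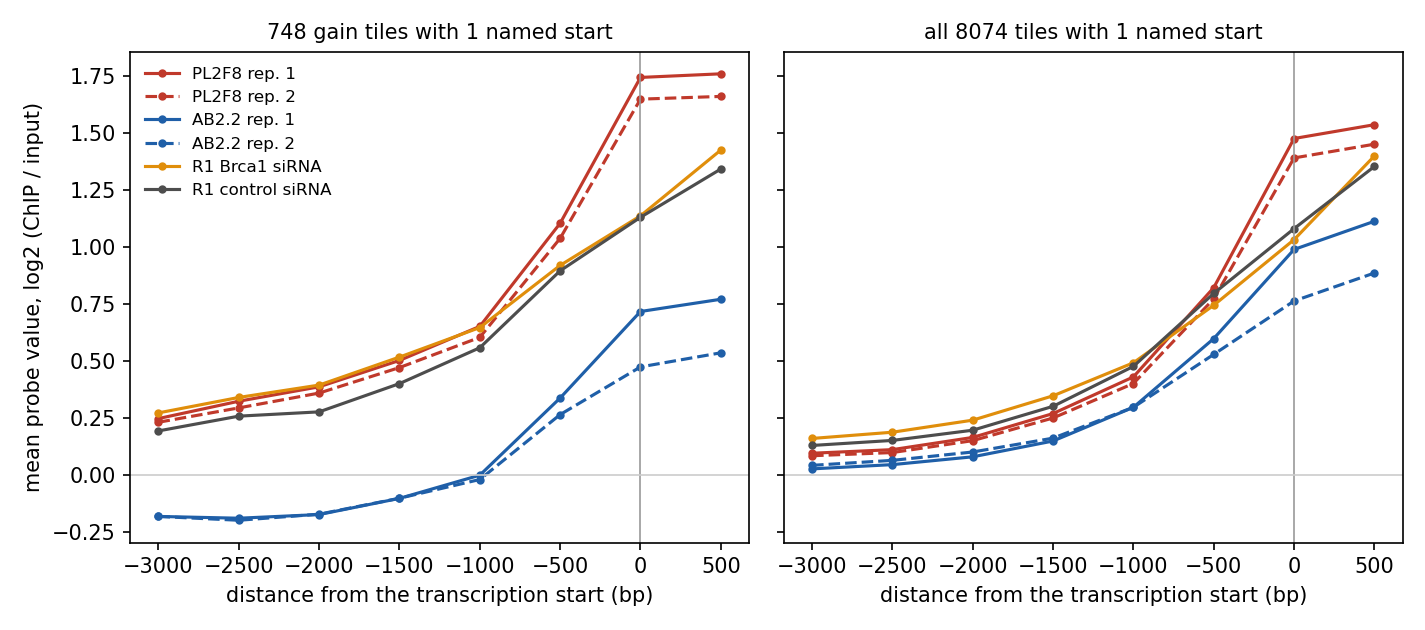
Mean probe value (log2 ChIP over input, centred) in bins of 500 bp around the named transcription start on each of the 6 arrays, for the 748 gain tiles with 1 named start (left) and all 8074 such tiles (right). In the gain tiles AB2.2 runs below the other arrays in every bin, with -0.18 at the far upstream end and 0.59 around the start, where PL2F8 has 0.24 and 1.70. The R1 arrays lie at the PL2F8 level upstream and between the lines at the start. Over all such tiles AB2.2 also runs below the other arrays, and R1 also lies between the lines at the start.

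The R1 arrays differed in shape from PL2F8 at these tiles, as they did over all tiles with 1 named start. Far upstream, from -3250 to -2750 bp, R1 averaged 0.27 after Brca1 siRNA and 0.19 after control siRNA, close to the 0.24 of PL2F8. Around the start R1 averaged 1.14 after Brca1 siRNA and 1.13 after control siRNA, below the 1.70 of PL2F8 and above the 0.59 of AB2.2. The AB2.2 duplicates also separated there, with 0.72 and 0.47, while far upstream both had -0.18. Over all tiles with 1 named start, R1 averaged 1.03 after Brca1 siRNA and 1.08 after control siRNA around the start. PL2F8 had 1.43 there and AB2.2 0.88, with 0.99 and 0.76 on its duplicates. Far upstream these R1 averages were 0.16 and 0.13, beside 0.09 in PL2F8. The shape is thus not particular to the gain tiles.

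The centre of the gain in a tile, the mean probe position weighted by the PL2F8 minus AB2.2 difference, had a median of -839 bp, with an interquartile range of -1131 to -567 bp. Over all tiles the median was -730 bp, and the mean probe position, where an evenly spread gain would centre, lay at -1170 bp. Over all tiles the interquartile range was -1067 to -417 bp. The centre lay downstream of the start at 19 of the 748 tiles, within 500 bp of it at 150 and more than 1000 bp upstream at 274. How many of all tiles fall in these ranges was not counted, and nothing is read from the counts. The 5 neighbouring probes with the highest mean difference began at -500 bp or beyond it downstream at 379 tiles (50.7%), where all tiles had 58.0%, and more than 2000 bp upstream at 132 tiles (17.6%), where all tiles had 15.6%.

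The gain rarely covered a whole tile. The share of probes in a tile that differed by 0.5 or more had a median of 51.9%, from 26.3% to 93.3%, where the median over all tiles was 24.3%. It was 75% or more at 19 tiles and under 25% at none of the 993. Over all tiles the interquartile range was 15 to 35%. The counts over all tiles were not made, and the rule itself selects tiles with a high share. Hspb3 held the highest share, but its 15 probes lie only between -602 and 798 bp, so most of that tile was not measured.

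The authors' peak lists, called for each array separately, divide the gain tiles into those already marked in AB2.2 and those not. A peak was listed on all 4 arrays of the 2 lines at 337 gain tiles (33.9%), where 20.9% of all tiles had one. These had medians of 1.36 and 1.28 on the PL2F8 arrays, against 0.65 and 0.55 on the AB2.2 arrays. A peak in PL2F8 alone of the lines, listed on both of its arrays, was found at 248 gain tiles (24.97%), where 7.41% of all tiles had this pattern, with medians of 0.57 and 0.54 on the PL2F8 arrays, against -0.13 and -0.18 on the AB2.2 arrays. No peak was listed on any of the 4 arrays at 282 gain tiles (28.4%; all tiles 59.8%), with medians of 0.17 and 0.15 on the PL2F8 arrays, against -0.46 and -0.50 on the AB2.2 arrays. The remaining 126 tiles (12.7%; all tiles 11.9%) had other combinations. Peaks reflect the same arrays that chose the tiles, so these shares are a description.

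By array, 682 and 683 gain tiles had a listed peak in PL2F8 (all tiles 33.6% and 33%), against 407 and 349 in AB2.2 (all tiles 28.8% and 25.6%). Of the 12 named tiles with the largest gap, Lamb2, Osgin1, Lats2, Rgs19 and Paqr7 had this pattern of a peak in PL2F8 alone of the lines, and Shank2, Zfp521 and Slc9a3 had one on all 4.

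Of the 993 tiles, 829 (83.5%) carried a named start, where 48.8% of all tiles did. The lists name a start only where an array had a peak, so this share moves with the peaks and reads as no property of the gain. Among the 282 gain tiles with no peak on the 4 arrays of the 2 lines, 42.6% were named. That share over all tiles without such a peak was not counted. The named tiles held 900 of the 9614 named genes, 9.36%. Classes were assigned by gene symbol alone, which misplaces some members, such as Rps6ka3, a kinase gene that fell among the ribosomal symbols, and Rhox7, a homeobox gene that fell among the GTPase symbols.

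The gain tiles were spread over all 16 gene classes, beside 9.36% of all named genes. The classes cover only part of the set. Of the 900 genes, 454 (50.4%; all named genes 52.8%) matched no class. Another 108 (12%; all named genes 10.9%) fell in the class of clone or family number names, which gives no function. The lowest shares were 18 of 256 zinc finger and BTB protein genes (7.03%), 34 of 436 developmental transcription factor genes (7.80%) and 27 of 344 cell adhesion and matrix genes (7.85%). The highest were 24 of 201 other G protein-coupled receptor and G protein genes (11.9%), 23 of 207 neurotransmitter receptor and synapse genes (11.1%) and 25 of 228 immune and cytokine genes (11.0%). No test was made on the classes. The share of developmental transcription factor genes depended on the upper limit of the rule. The limit left out 56 tiles that met the gap with all 6 arrays at 1.5 or above, and 27 of the 59 named genes that start in them were developmental transcription factor genes. Without the limit 61 of 436 such genes (13.99%) started in a tile that met the gap, the highest share of the 16 classes, where all named genes had 9.98%. The medians of the 56 tiles were 2.78 and 2.66 on the PL2F8 arrays, against 2.06 and 1.88 on the AB2.2 arrays.

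**Figure D4:**
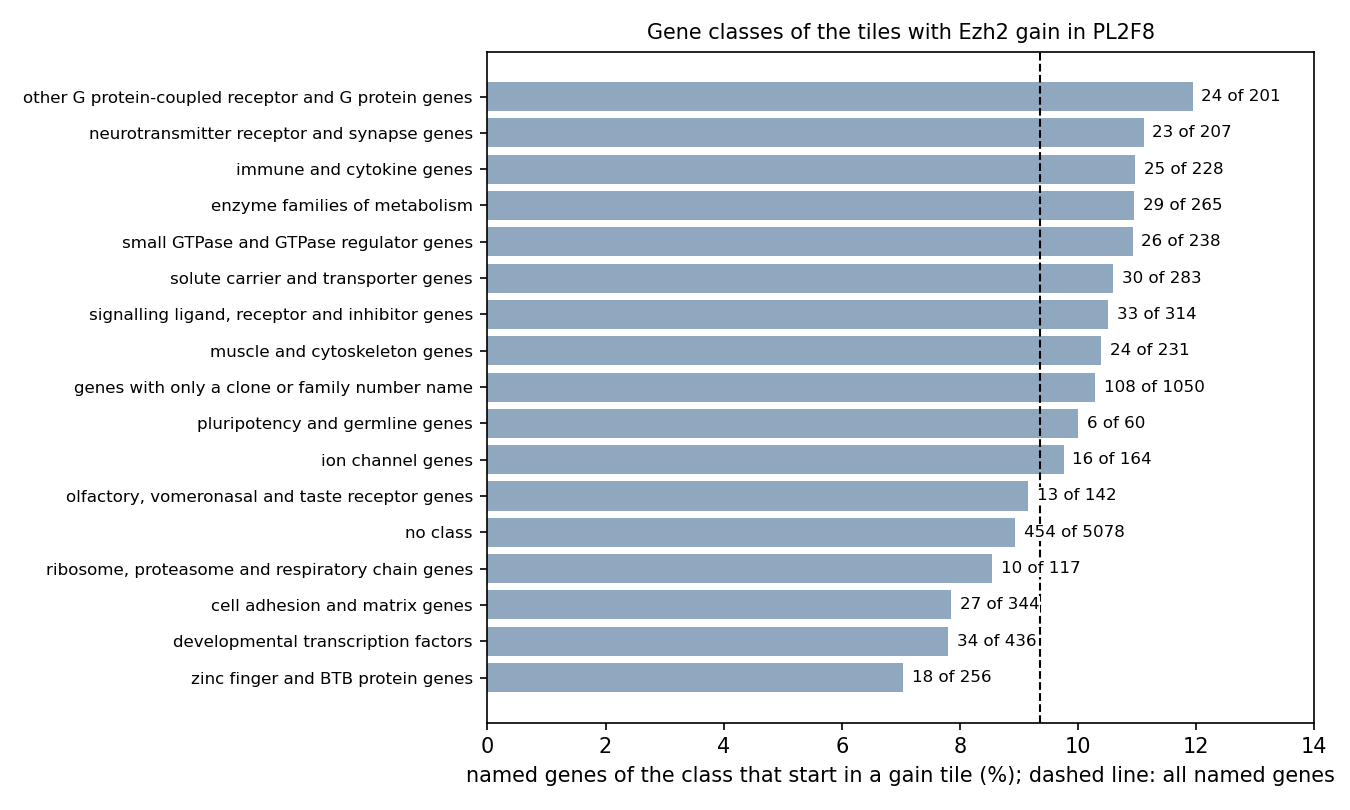
Share of the named genes of each symbol class that start in a gain tile, with counts; the dashed line is the 9.36% of all named genes. The shares run from 7.03% for zinc finger and BTB protein genes to 11.9% for other G protein-coupled receptor and G protein genes.

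The classes differed in the level of Ezh2 at their gain tiles. The 34 developmental transcription factor genes had a median of 1.38 in PL2F8, against 0.60 in AB2.2, and the 16 ion channel genes 1.40, against 0.67. The 24 muscle and cytoskeleton genes had 0.62, against 0.01, the 30 solute carrier and transporter genes 0.73, against -0.14, and the 10 ribosome, proteasome and respiratory chain genes 0.66, against -0.02. The median PL2F8 minus AB2.2 difference lay between 0.62 and 0.70 in every class, a span that the rule itself narrows from below.

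Among developmental regulators, the largest gaps were at Hr, a corepressor gene required for hair growth, and Pou2f2, a POU-domain factor gene of B cells. Hr had 1.77 and 1.64 on the PL2F8 arrays, against 0.60 and 0.38 on the AB2.2 arrays, and 1.80 after Brca1 siRNA and 1.44 after control siRNA in R1. Pou2f2 had 1.18 and 1.13 on the PL2F8 arrays, against 0.24 and 0.10 on the AB2.2 arrays, and 1.42 after Brca1 siRNA and 1.19 after control siRNA in R1. None of the 39 Hox cluster genes with a named start was in a gain tile, a family looked up after the values were seen. Hoxd9 started in 1 of the 56 tiles left out by the upper limit.

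Among zinc finger and BTB protein genes, Kbtbd13, a muscle substrate adaptor gene, had 1.52 and 1.40 on the PL2F8 arrays, against 0.40 and 0.38 on the AB2.2 arrays, after Zfp521 in gap. Among signalling genes, Fgfrl1, which encodes a fibroblast growth factor receptor without a kinase domain, had 1.35 and 1.31 on the PL2F8 arrays, against 0.58 and 0.44 on the AB2.2 arrays. Bmp8b, a bone morphogenetic protein ligand gene, had 1.58 and 1.49 on the PL2F8 arrays, against 0.76 and 0.61 on the AB2.2 arrays. In R1 both lay between the lines, with 1.00 after Brca1 siRNA and 1.09 after control siRNA at Fgfrl1 and 1.06 and 1.14 in the same order at Bmp8b.

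Ion channel and transporter genes were represented by Accn1, an acid-sensing sodium channel gene, with 1.42 and 1.37 on the PL2F8 arrays, against 0.61 and 0.42 on the AB2.2 arrays. Trpv3, a heat-activated cation channel gene of keratinocytes, had 0.42 and 0.38 on the PL2F8 arrays, against -0.32 and -0.35 on the AB2.2 arrays. Slc41a3, a magnesium carrier family gene, had 0.90 and 0.81 on the PL2F8 arrays, against -0.21 and -0.19 on the AB2.2 arrays, and R1 control stayed low at 0.18. The synaptotagmin gene Syt8 had 0.55 and 0.46 on the PL2F8 arrays, against -0.44 and -0.43 on the AB2.2 arrays.

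Small GTPase genes had a median of 0.69 in PL2F8, against 0.01 in AB2.2, and immune and cytokine genes 0.99, against 0.28. Rab35, a small GTPase gene of endosome recycling, had 0.69 and 0.66 on the PL2F8 arrays, against -0.16 and -0.18 on the AB2.2 arrays. Rhot2, a mitochondrial GTPase gene, had -0.19 and -0.15 on the PL2F8 arrays, against -0.96 and -1.05 on the AB2.2 arrays. Il21r, a cytokine receptor gene of lymphocytes, had 0.73 and 0.69 on the PL2F8 arrays, against -0.38 on both AB2.2 arrays. Il11, a cytokine gene, had 0.66 and 0.59 on the PL2F8 arrays, against -0.17 and -0.16 on the AB2.2 arrays, and R1 lay above PL2F8 with 0.89 after Brca1 siRNA and 0.87 after control siRNA.

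The 6 pluripotency and germline members were Dnmt3b, Prm1, Spata20, Syce1, Tex264 and Tssk2. Of these, Dnmt3b, a de novo DNA methyltransferase gene, had the highest signal, with 1.16 and 1.09 on the PL2F8 arrays, against 0.58 and 0.41 on the AB2.2 arrays. Tssk2, a testis kinase gene, had -0.27 and -0.28 on the PL2F8 arrays, against -0.88 and -0.86 on the AB2.2 arrays. None of the 7 named markers of pluripotent ES cells was in a gain tile, and of the 7 named fibroblast markers Col1a1, a collagen gene, was, with 1.07 and 1.03 on the PL2F8 arrays, against 0.32 and 0.16 on the AB2.2 arrays. Of the other 6, Thy1 had 0.74 and 0.75 on the PL2F8 arrays, against 0.92 and 0.83 on the AB2.2 arrays. Fn1 had 0.30 and 0.33 on the PL2F8 arrays, against 0.51 and 0.42 on the AB2.2 arrays. Col1a2, Pdgfra, Pdgfrb and Vim were higher in PL2F8 with no overlap between the lines, outside the rule. How many of all tiles show such an order was not counted. Among the pluripotency markers, Esrrb and Klf4 were also higher in PL2F8 without overlap. Esrrb had 1.99 and 1.96 on the PL2F8 arrays, against 1.49 and 1.19 in AB2.2. Pou5f1, Fgf4 and Dnmt3l were lower in PL2F8 without overlap, with -0.56 and -0.58 at Pou5f1, against 0.03 and -0.05 in AB2.2. At Nanog and Sox2 the lines overlapped. These are levels of Ezh2 and hold no expression, so they do not check the cell type.

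Olfactory receptor genes, 13 of 142 in gain tiles (9.15%), included Olfr1411, with 0.39 on both PL2F8 arrays, against -0.64 and -0.66 on the AB2.2 arrays, and Olfr282, with 1.06 and 0.99, against 0.19 and -0.01. Polr1c/Yipf3/Gm88, a tile with a subunit gene of RNA polymerases I and III, had 0.27 and 0.26 on the PL2F8 arrays, against -0.51 and -0.62 on the AB2.2 arrays. Pcgf2/Psmb3, a tile that holds the start of a Polycomb ring finger gene beside that of a proteasome subunit gene, had 0.69 and 0.66 on the PL2F8 arrays, against -0.04 and -0.13 on the AB2.2 arrays. Probes that match the genome more than once made up 64.7% of those at 1810014B01Rik, which had 0.78 and 0.69 on the PL2F8 arrays, against -0.33 and -0.42 on the AB2.2 arrays. Such probes exceeded 50% at 27 of the 993 tiles (2.72%) and at 4.36% of all tiles.

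Some gain tiles lay next to each other. Counting tiles with no other tile between them and at most 100000 bp apart, 142 gain tiles fell into 67 runs. How many runs other tiles of the same number would give was not counted, so no clustering of the gain is read from them. The longest held 4 tiles on chromosome 2 (chr2:25426036-25480725), named Mamdc4/Phpt1, Gm996, B230208H17Rik and 1 without a name, and their PL2F8 minus AB2.2 differences lay between 0.71 and 0.79. A run of 3 tiles held Olfr1411, Olfr1410 and Olfr12, and another Abcc3, Cacna1g and Spata20. By chromosome, the share of tiles that were members was highest on chromosomes 15 (8.20%) and 17 (7.99%) and lowest on chromosomes 13 (2.79%) and X (2.63%).

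The R1 control array exceeded both AB2.2 arrays at 968 of the 993 tiles (97.5%), where it did so at 52.2% of all tiles, and the R1 Brca1 siRNA array at 953 (96.0%; all tiles 48.5%). The R1 control array lay between the lines at 712 tiles (all tiles 21.5%), above both PL2F8 arrays at 213 (all tiles 36.1%) and below both AB2.2 arrays at 13 (all tiles 39.5%). The median R1 control minus AB2.2 difference was 0.49 and the median R1 control minus PL2F8 difference -0.21, where all tiles had 0.05 and -0.05. Both R1 arrays exceeded both AB2.2 arrays by 0.5 or more at 331 gain tiles, and 4.61% of all tiles did so. The rule chose tiles for low AB2.2 and high PL2F8 values and for the gap between them, and nothing is read from these counts and differences.

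At 80 tiles with the mirrored loss the lower AB2.2 array exceeded the higher PL2F8 array by 0.5 or more. There the R1 control array lay below both AB2.2 arrays at 77 tiles and above both at 2. Its median was -0.09, with -0.17 and -0.16 on the PL2F8 arrays, against 0.46 and 0.53 on the AB2.2 arrays. These tiles too were chosen with the AB2.2 values.

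The numbers in the array names place both AB2.2 arrays and PL2F8 replicate 2 in 1 series and PL2F8 replicate 1 with both R1 arrays in another. Within the first series, PL2F8 replicate 2 minus the AB2.2 mean had a median of 0.65 at the gain tiles, and across the series PL2F8 replicate 1 minus the AB2.2 mean had 0.69. No R1 array lies in the series of AB2.2, so R1 against AB2.2 cannot be told apart from this split of the numbers.

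Listed peaks gave a similar order. A peak was listed on the R1 control array at 615 gain tiles (61.9%, all tiles 32.8%). The R1 Brca1 siRNA array had a peak at 648 (all tiles 33.7%), and both had a peak at 541 (all tiles 27.1%). The tiles were chosen by rule and each R1 condition has a single array, so no interval is given for these shares. Of the 248 tiles with a peak in PL2F8 alone of the lines, 101 had a peak on both R1 arrays, as had 327 of the 337 tiles listed on each of the 4 arrays of the lines and 38 of the 282 with none. The shares over all tiles of the same patterns were not counted, and nothing is read from these counts. With peaks at a false discovery rate of 0.05 or less, 405 gain tiles (40.8%; all tiles 20.9%) had one on the R1 control array.

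The R1 pair addresses lowered Brca1 in another line, with 1 array per condition and so no replicate check and no test. At the gain tiles R1 Brca1 siRNA minus control had a median of 0.06, with an interquartile range of -0.09 to 0.20, where the median over all tiles was -0.03. The Brca1 siRNA array lay above the control array at 616 of the 993 tiles (62.0%), where 44.4% of all tiles did. Tiles marked in any peak list of PL2F8 or AB2.2, gain tiles included, had a share of 51.3% and a median of 0.006. Tiles with a gap from 0.4 to under 0.5 had 58.9% and 0.05. The higher share was thus not confined to the gain tiles. The Brca1 siRNA array was higher by 0.5 or more at 31 gain tiles (3.12%, all tiles 1.11%). It was lower by 0.5 or more at 18 (1.81%, all tiles 0.906%). The median of 0.06 stands beside 0.67 between the lines. The differences between duplicates were given as absolute values, so this signed median is not set against them. By peak pattern the median was 0.08 at tiles listed on each of the 4 arrays of the lines, 0.03 at those with a peak in PL2F8 alone of the lines and 0.06 at those with none. At the 56 tiles left out by the upper limit it was -0.08.

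**Figure D5:**
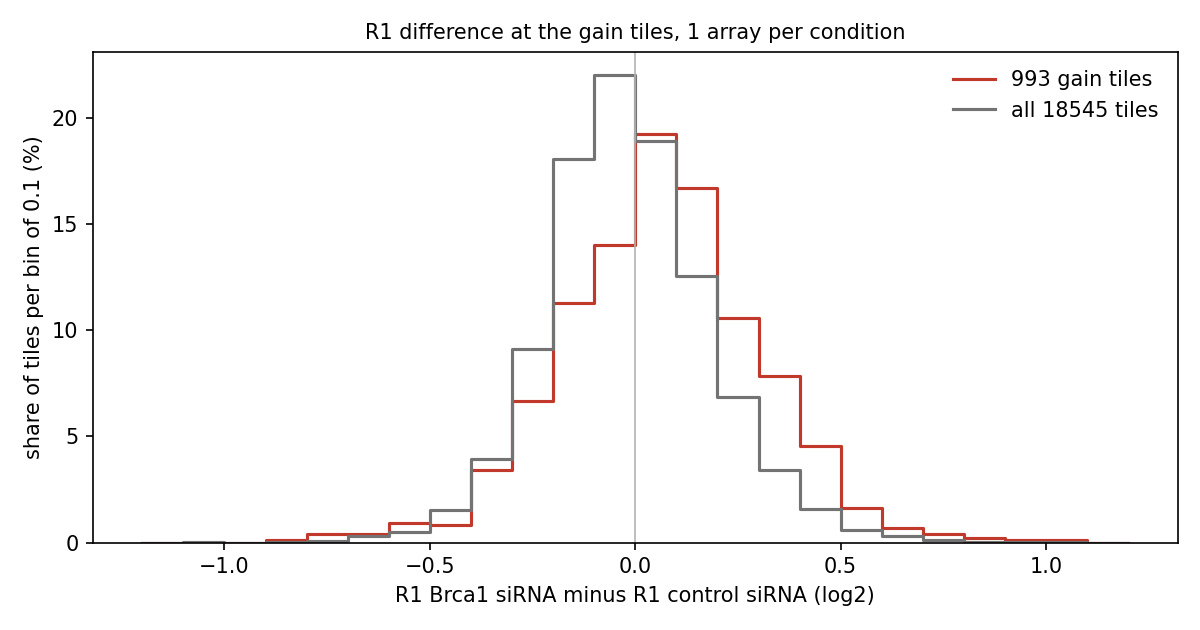
Share of tiles per bin of 0.1 against R1 Brca1 siRNA minus R1 control siRNA (log2), for the 993 gain tiles and all 18545 tiles, with 1 array per condition. The gain tiles are shifted to the right, with a median of 0.06 beside -0.03, and both distributions lie mostly within 0.5 of 0. Tiles with a gap from 0.4 to under 0.5, not drawn, had a median of 0.05.

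The named gain tiles with the highest R1 difference were Galr3, Upk2, Olfr1410, Gm9992 and Gstm7. Galr3, a galanin receptor gene, had 0.87 after Brca1 siRNA and -0.21 after control siRNA in R1, a difference of 1.08, with 0.58 and 0.54 on the PL2F8 arrays, against -0.11 and -0.28 on the AB2.2 arrays. Upk2, a uroplakin gene of bladder epithelium, had 1.14 after Brca1 siRNA and 0.19 after control siRNA. Gstm7, a glutathione transferase gene, had 0.38 after Brca1 siRNA and -0.41 after control siRNA. At Galr3, Gstm7, Olfr1410 and Gm9992 the R1 Brca1 siRNA array had a listed peak and the R1 control array had none. All probes of the Gm9992 tile (100%) match the genome more than once.

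The 5 lowest were Elmo2, Mbd1, Sphkap, Atpif1/Dnajc8 and Gm5635. Elmo2, a gene of cell engulfment and motility, had -0.44 after Brca1 siRNA and 0.43 after control siRNA, with -0.10 and -0.14 on the PL2F8 arrays, against -0.70 and -0.77 on the AB2.2 arrays. Sphkap, a kinase-anchoring protein gene, had 0.38 after Brca1 siRNA and 1.11 after control siRNA, and PL2F8 had 1.15 and 1.05.

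The R1 control array was farthest above the PL2F8 mean at Rin1, Chrng, Fam107a, Ptger1 and Elmo2, with R1 control minus PL2F8 of 0.55 to 0.61. Chrng, a subunit gene of the muscle acetylcholine receptor, had 0.94 on the R1 control array and 0.78 after Brca1 siRNA, above the 0.32 of both PL2F8 arrays. It was farthest below at Tmem185b, Wipf1, Celsr1, Pvrl3 and Pde4a, with R1 control minus PL2F8 of -0.92 to -0.80. Wipf1, a gene of actin filament assembly, had 0.52 on both R1 arrays, near the 0.45 and 0.50 of AB2.2, while PL2F8 had 1.49 and 1.38. Celsr1, a cadherin gene of planar cell polarity, had 0.30 on both R1 arrays, with 1.21 and 1.13 on the PL2F8 arrays, against 0.53 and 0.32 on the AB2.2 arrays.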

How the data were processed

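Ezh2 ChIP and input DNA of 6 mouse ES cell samples were compared on promoter arrays with 2 channels. The deposited table of the authors holds 1 log2 ratio of ChIP over input per probe for 714900 probes; per the series' design text, normalized ChIP was divided by normalized input. No label or header names the normalization method, the peak caller or the genome build, and the array medians, 0.02 to 0.04, show centring near 0 by a method that is unknown. The authors' peak lists, 1 per array, give per the file headers a false discovery rate (a q-value as a fraction, at most 0.198), a log2 score and the nearest transcription start with its gene symbol, from which tiles were named.

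Each array was centred on its probe median and the probes were averaged per tile; 69 of 18614 tiles had under 5 probes. With ChIP in Cy5 on every array, a dye effect cannot be told apart from enrichment, and the number of arrays limits the precision. Peaks and tiles were matched by an overlap of at least 1 bp. No test was made: the rule uses PL2F8 against AB2.2, and the R1 conditions have 1 array each. The selection steps were run on simulated data with shifts larger than most gains here, noise independent between arrays and no upper limit. That run checks the steps and not how reliable the chosen tiles are. Promoter sequences are those of the largest gaps whose gene has 1 entry in the RefSeq table, outside chromosome 18. Named are the 12 largest gaps, the 2 largest per gene class, the 5 highest and 5 lowest R1 differences, the 3 tiles on each side of the threshold, and the 5 tiles with R1 control farthest above and below PL2F8. The tiles, gene classes and lists were chosen with earlier results of these data known. The same-numbered arrays share only a number. Software was matplotlib 3.10.9, pandas 2.3.3, scipy 1.17.1 and numpy 2.4.6 under Python 3.11.15. Alternatives covered centring, scaling, probe summary, thresholds, peak threshold and overlap, and leaving out arrays.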

Additional observations from a re-analysis of the deposited data

Results flagged for a closer look

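At 5 named gain tiles the R1 pair went farthest the other way from the lines, with the Brca1 siRNA array below the control array. That direction was not confined to them. The Brca1 siRNA array lay above the control array at 62.0% of the gain tiles, where it did so at 44.4% of all tiles. At tiles with a gap from 0.4 to under 0.5 it did so at 58.9%. The Brca1 siRNA array was lower by 0.5 or more at 18 gain tiles (1.81%, all tiles 0.906%). With 1 array per R1 condition this difference in direction was not tested. The R1 Brca1 siRNA minus control difference was -0.88 at Elmo2, -0.79 at Mbd1, -0.73 at Sphkap, -0.71 at Atpif1/Dnajc8 and -0.70 at Gm5635. The PL2F8 minus AB2.2 difference at the same tiles was 0.62 at Elmo2, 0.55 at Mbd1, 0.73 at Sphkap, 0.57 at Atpif1/Dnajc8 and 0.91 at Gm5635. They are the 5 lowest R1 differences among the named gain tiles. The Mbd1 tile rests on 15 probes, and 50% of the probes of the Gm5635 tile match the genome more than once.

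Outside the measured tiles, 10 of the 69 tiles with fewer than 5 probes also had a gap of 0.5 or more between the lower PL2F8 and the higher AB2.2 array. They were left out by the probe minimum and carry no further value here.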

How the results depend on the processing

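The gap stayed above 0 at all 993 tiles under 4 of 5 scaling, centring and probe summary alternatives, and at 977 with the median of probes. The tiles were chosen on the same arrays for a gap of 0.5 or more, so this says nothing on how reliable the gain is. The number of tiles passing the rule depended on the setting. Quantile normalization gave 365 tiles, all of them among the 993; it moves the median PL2F8 minus AB2.2 of all tiles to -0.01 in place of 0.11. A gap of 0.4 gave 1931 tiles and a gap of 0.8 gave 97. Leaving out 1 array of PL2F8 or AB2.2 gave 1022 to 1606 tiles, the highest without AB2.2 replicate 1. Without the upper limit, for the class share an alternative chosen after seeing the data, the share of developmental transcription factor genes was 13.99% in place of 7.80%, because tiles with high signal on all arrays then count. With the median of probes 733 tiles passed, of which 433 were among the 993.

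The median R1 Brca1 siRNA minus control stayed between 0.03 and 0.10. The share of passing tiles with Brca1 siRNA above control ran from 56.5% with the arrays scaled to the same spread to 67.7% with centring on tiles without a listed peak. Over all tiles the median difference moved too, with -0.03 and 0.015 in the same order. The median R1 control minus AB2.2 was 0.55 with the median of probes, 0.42 at a gap of 0.4 and 0.72 at 0.8. The share of tiles with R1 control above both AB2.2 arrays was 94.1%, 94.8% and 100% under the same settings in that order, and 95.8 to 98.3% with 1 array left out. The share with an R1 control peak was 73.5%, 58.4% and 68.0% under them, 40.8% at a false discovery rate of 0.05, and 59.1 to 66.9% with 1 array left out. The centre of the gain was -926 bp after quantile normalization, -949 bp with the median of probes, -1043 bp at a gap of 0.8, -895 to -744 bp with 1 array left out, and -466.5 bp as the start of the highest 5 probes. With the replicate number as a replicate block, both same-numbered differences at least 0.5, 1256 tiles passed. All 993 were among them, which the gap of the rule fixes in advance. Of the named tiles, 54 of 59 moved by more than the spread between duplicates under quantile normalization and 46 with the median of probes. Duplicates that agree probe by probe limit what their spread says, and dim tiles lie near the array median.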

Other observations

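Some gain tiles lay in families of near-identical genes, looked up after the values were seen. Of 27 named H2 histocompatibility genes, which present peptides to T cells, 7 (25.9%) started in 6 gain tiles, where 9.36% of all named genes did (H2-D1, H2-K1, H2-K2, H2-Q8, H2-T22, H2-T3 and H2-T9). The tile means ran between 0.86 and 1.62 in PL2F8, against 0.24 and 0.78 in AB2.2, and R1 had 1.02 to 1.56 after Brca1 siRNA and 0.85 to 1.40 after control siRNA. At H2-T3 R1 had 1.55 after Brca1 siRNA and 1.21 after control siRNA, both above the 0.94 and 0.90 of PL2F8. Between 22.9% and 90.9% of the probes of these 6 tiles match the genome more than once, so signal from related genes cannot be told apart there.

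Of 9 named Rhox genes, homeobox genes of the reproductive tract clustered on the X chromosome, 5 (55.6%) started in gain tiles, beside the same 9.36% (Rhox2b, Rhox2d, Rhox2f, Rhox4f and Rhox7), with 66.7% to 100% of their probes matching more than once. Their means ran between 0.25 and 0.50 in PL2F8, against -0.57 and -0.19 in AB2.2. In R1 they parted: Rhox7 had 1.47 after Brca1 siRNA and 0.98 after control siRNA, while Rhox2b had -0.38 and -0.18 in the same order. Tnf/Lta, a tile with 2 cytokine genes near H2-D1 and no such probes, had 1.53 and 1.46 on the PL2F8 arrays, against 0.91 and 0.80 on the AB2.2 arrays.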
